A study of Mus musculus with 26 samples.

Results

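Aβ Field-LTMRs, low-threshold mechanoreceptors of the skin, were set against peptidergic nociceptors to list the nociceptor genes that the field afferents shared and those that they lacked. The comparison used the 3 Aβ Field-LTMR and the 3 peptidergic nociceptor libraries of an RNA-seq series of 26 libraries from 8 sorted types of mouse dorsal root ganglion neuron, chosen by the names of their columns in the deposited count table. Field-LTMRs came from TrkCCreER;Retf(GFP) mice given tamoxifen at 2 mg a day on postnatal days 13 to 14, or 14 to 15. Peptidergic nociceptors came from CGRP-GFP mice without tamoxifen. Mice of both groups were adult, at postnatal day 23 or later, and ganglia of all axial levels were dissociated and sorted by flow cytometry. RNA was amplified with a NuGEN kit before TruSeq library preparation. Neurons of several mice and sorts were pooled for each library, so adjusted p-values measure the spread between such pools. Tamoxifen was given to one group alone and the reporter differed, so neither can be told apart from the neuron type. In a pool, fewer cells of a type and less RNA per cell cannot be told apart.

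Aβ Field-LTMRs are large, myelinated afferents whose endings encircle many hair follicles over wide areas of skin; they respond to gentle stroking and are insensitive to deflection of single hairs. Peptidergic nociceptors are mostly unmyelinated or thinly myelinated afferents that release calcitonin gene-related peptide and substance P, depend on nerve growth factor in development, and detect heat, irritants and tissue damage. The Cre driver of the field population reads TrkC (Ntrk3), the neurotrophin-3 receptor, and its reporter sits in Ret, the receptor of glial-derived neurotrophic factors; cells were therefore selected for both genes. The CGRP-GFP line reads Calca, the gene of calcitonin gene-related peptide, so the level of Calca in the peptidergic group was fixed by the sort.

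The labelling genes followed the labels, which checks the sort and is no finding. Ntrk3 (ENSMUSG00000059146, GRCm38 chromosome 7, 78175959 to 78738012, minus strand) stood at 297, 134 and 153 CPM (read counts relative to library size, scaled with TMM factors) in Field libraries 1, 2 and 3 and at 15.3, 31.3 and 28.5 CPM in peptidergic libraries 1, 2 and 3. The groups did not overlap, and the difference was 2.96 on the log2 scale (SE 0.35, adjusted p = 6.05e-07). Calca (ENSMUSG00000030669, chromosome 7, 114631478 to 114636357, minus strand) stood at 188, 313 and 217 CPM in Field libraries and at 3885, 3444 and 3340 CPM in peptidergic libraries. Field libraries held 6.73% of the peptidergic mean of Calca, so its transcript was low but measured in each of them. Ret (ENSMUSG00000030110, chromosome 6, 118151745 to 118197718, minus strand) stood at 525, 372 and 452 CPM in Field libraries and at 512, 527 and 561 CPM in peptidergic libraries, and these ranges overlapped. The field mice carry a reporter allele at Ret, and its part in the Ret value was not tested.

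The libraries differed in depth and quality. Total counts ran from 10706522 to 49999958 in the Field group and from 50268872 to 57942248 in the peptidergic group. The share of mapped reads in exons was 59.7% to 66.0% in Field libraries and 72.6% to 75.9% in peptidergic libraries, and genes with a count numbered 16912 to 19005 and 21465 to 21692. Field library 2 stood apart with 10706522 counts and a 5'-3' ratio of 0.82, the lowest of the 6. Pearson's r of log2 CPM across genes was 0.990 to 0.991 between peptidergic libraries, 0.962 to 0.970 between Field libraries and 0.919 to 0.942 between the groups; genes are not independent replicates. The part of depth and exonic share in the differences was not tested.

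Of 17411 genes tested with edgeR's quasi-likelihood test, 1493 were lower in Field-LTMRs (8.58%) and 1346 were higher (7.73%). A call needed a p under 0.05 after Benjamini-Hochberg adjustment over all genes, and a difference of at least 2-fold. In all, 16.3% of genes passed. Without Field library 3, 989 genes were lower. The median log2 difference, Field minus peptidergic, was 0.02 over all genes. A gene was called shared where the 95% interval of its difference lay inside 2-fold either way and both groups averaged 5 CPM or more; 5117 genes met this (29.4%). A gene was called lacked where it was lower in Field-LTMRs, under 1 CPM in each Field library and at 5 CPM or more on average in peptidergic libraries; 50 genes met this (0.287%). Such a level is a limit of detection in amplified pools, not absence. For 8197 genes (47.1%) the libraries of the groups did not overlap. The gene groups below were chosen with earlier results of these data known, so their counts describe them and test nothing. Shares given for the groups stand beside 8.58% lower, 7.73% higher, 29.4% shared and 0.287% lacked of all genes.

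**Figure D1:**
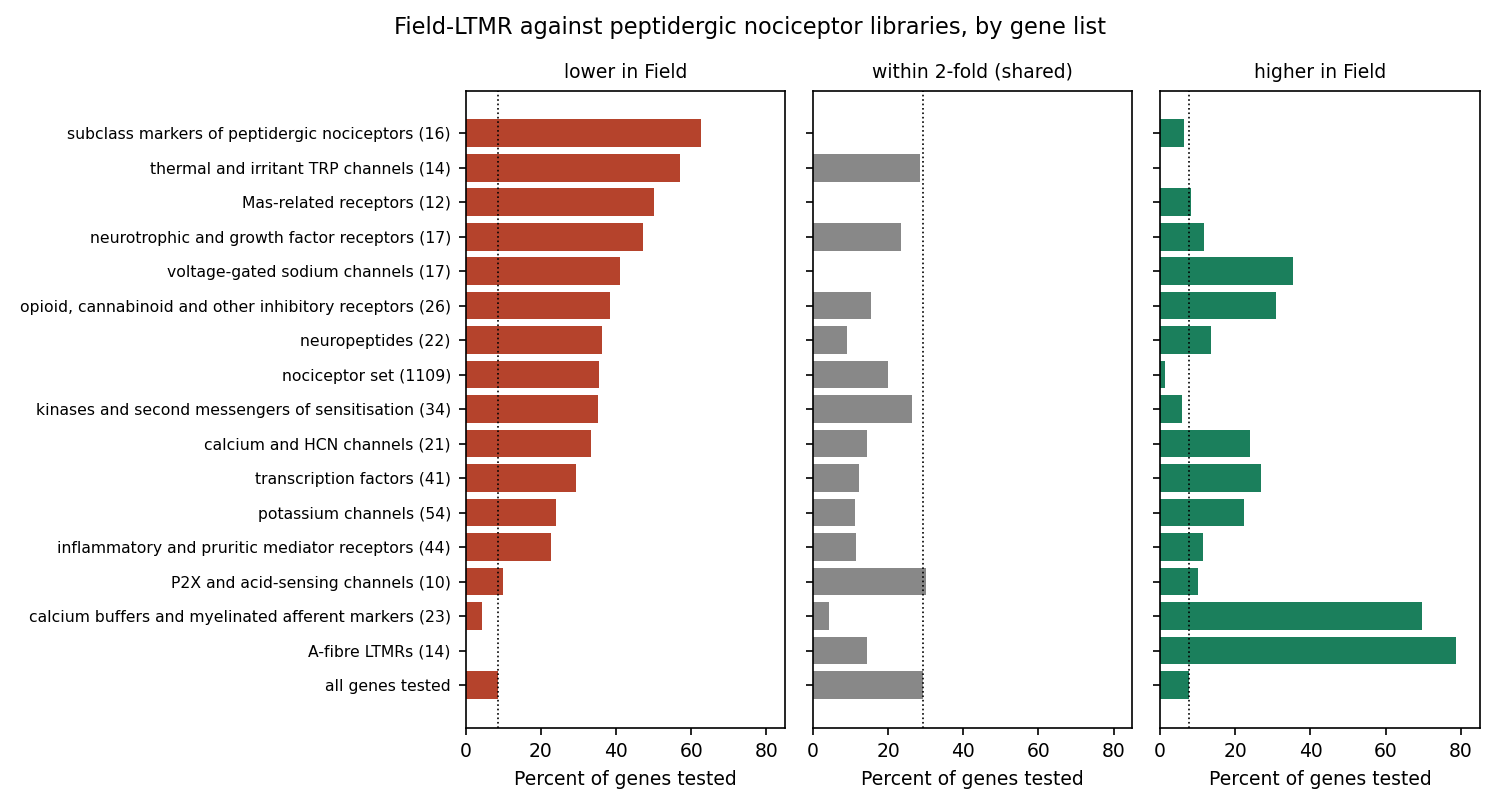
Percent of the tested genes of each gene group that were lower in Field-LTMRs, shared, or higher in Field-LTMRs, with the number of genes tested in brackets and a dotted line at the percent of all genes tested. Subclass markers of peptidergic nociceptors and TRP channels have the longest bars for lower genes, and A-fibre LTMR markers the longest for higher genes. The A-fibre LTMR markers and the growth factor receptors include Ntrk3 and Ret, for which the Field cells were selected.

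Promoters of 4 nociceptor genes that were each lower in Field-LTMRs are shown. They are Calca, which the reporter of the peptidergic group reads, the sodium channels Scn10a and Scn11a, and the heat and capsaicin receptor Trpv1. Each sequence is the 250 bases before a RefSeq start site (GRCm38.p6), 5′ to 3′ on the strand of the gene. Where several start sites were listed for a gene, the first by position was used, which on the minus strand is the most downstream. The Scn10a window lies inside the span of that gene given below. Capitals mark matches, on either strand, to TGACG, the short form of the cAMP response element, or to TGTGGT, the core bound by RUNX factors; the motifs do not overlap here.
Calca (chr7:114636358-114636607, minus strand): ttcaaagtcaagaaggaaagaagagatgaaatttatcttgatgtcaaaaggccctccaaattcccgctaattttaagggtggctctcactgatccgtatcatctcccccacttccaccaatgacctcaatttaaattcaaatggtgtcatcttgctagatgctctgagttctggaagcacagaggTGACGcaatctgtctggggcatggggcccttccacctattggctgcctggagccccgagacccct
Scn10a (chr9:119719033-119719282, minus strand): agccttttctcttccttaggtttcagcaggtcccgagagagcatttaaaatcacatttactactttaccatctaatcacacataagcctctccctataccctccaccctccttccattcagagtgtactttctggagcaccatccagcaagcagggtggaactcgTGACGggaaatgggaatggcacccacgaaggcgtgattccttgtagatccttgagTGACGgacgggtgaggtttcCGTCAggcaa
Scn11a (chr9:119825457-119825706, minus strand): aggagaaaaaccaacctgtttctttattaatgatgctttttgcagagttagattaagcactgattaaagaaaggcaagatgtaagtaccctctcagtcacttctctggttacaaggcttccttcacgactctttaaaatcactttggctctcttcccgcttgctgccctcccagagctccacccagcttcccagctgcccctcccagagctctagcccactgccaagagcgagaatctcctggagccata
Trpv1 (chr11:73233899-73234148, plus strand): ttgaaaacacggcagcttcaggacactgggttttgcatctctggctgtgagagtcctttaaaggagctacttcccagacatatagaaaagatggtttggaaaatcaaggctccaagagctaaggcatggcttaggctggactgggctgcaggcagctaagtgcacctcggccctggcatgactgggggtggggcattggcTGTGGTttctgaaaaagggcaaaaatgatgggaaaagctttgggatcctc
The TGACG motif occurred once in the Calca window and 3 times in the Scn10a window. The RUNX core occurred once in the Trpv1 window, and the Scn11a window held neither. Of 11789 tested genes with a RefSeq promoter, 25.1% held TGACG and 10.7% the RUNX core in the same window. Among genes lower in Field-LTMRs the shares were 18.4% and 10.7%, and among genes higher in Field-LTMRs 20.3% and 8.41%. A match describes the letters only.

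Neuropeptides and the proteins that process them were mostly lower or not called in Field-LTMRs: 8 of 22 tested genes were lower and 3 higher, beside 8.58% and 7.73% of all genes, with a median log2 difference of -1.59; the lower genes include Calca, which the reporter of the peptidergic group reads. Tac1, the precursor of substance P (ENSMUSG00000061762, chromosome 6), stood at 10.6, 35.5 and 39.6 CPM in Field libraries and at 759, 690 and 563 CPM in peptidergic libraries. All Field libraries lay far below all peptidergic libraries, and Tac1 was lower by a log2 difference of -4.56 (SE 0.48, adjusted p = 1.11e-07). Adcyap1, the gene of the peptide PACAP, stood at 8.01, 14.5 and 7.63 CPM against 384, 359 and 265 CPM, a log2 difference of -5.10 (SE 0.38, adjusted p = 7.2e-10). Calcb, the second calcitonin gene-related peptide gene, and Cartpt, the precursor of a peptide transmitter, were lower by log2 differences of -2.62 and -3.52. Gal, the galanin gene, was lower by -3.04, and by -3.97 without Field library 3, in which it stood at 8.05 CPM against 2.45 and 2.03 CPM in the other two. Secretory machinery split: the granule protein Scg2 (log2 difference -2.93) and the amidating enzyme Pam (-1.33) were lower in Field-LTMRs, while the granule protein Chga (1.78) and the carboxypeptidase Cpe (1.69) were higher. The convertase Pcsk2, which cuts peptide precursors, was shared, at 164, 146 and 144 CPM in Field libraries and 142, 127 and 180 CPM in peptidergic libraries.

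Receptors for growth factors were mostly lower or not called in Field-LTMRs. Of 17 tested, 8 were lower in Field-LTMRs (47.1%), 2 higher (11.8%) and 4 shared (23.5%), with a median of -1.43. The counts include Ntrk3 (higher) and Ret (shared), for which the Field cells were selected. Gfra3, the artemin co-receptor, stood at 3.37, 8.31 and 6.85 CPM in Field libraries and at 210, 155 and 144 CPM in peptidergic libraries (log2 difference -4.82, adjusted p = 1.32e-07). The stem cell factor receptor Kit (-3.79) and the oncostatin M receptor Osmr (-4.01) were lower as well. Il6st, the signalling subunit that oncostatin M and interleukin-6 receptors use, was lower by -1.43, at 715, 424 and 324 CPM against 1354, 1238 and 1361 CPM. The field afferents were higher in Ntrk3 and in Gfra1 (1.49), the co-receptor of glial-derived neurotrophic factor. Shared members were Ret, the brain-derived neurotrophic factor receptor Ntrk2 (log2 difference -0.14) and Ngfr, the low-affinity neurotrophin receptor (0.28). Ngfr was abundant in both, at 1372, 710 and 1171 CPM in Field libraries and at 906, 912 and 853 CPM in peptidergic libraries. The neurturin co-receptor Gfra2 also met the shared rule (0.06), but not without Field library 2 or 3 or any 1 of the peptidergic libraries, nor with the level of satellite glia markers as a covariate (-0.38).

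**Figure D2:**
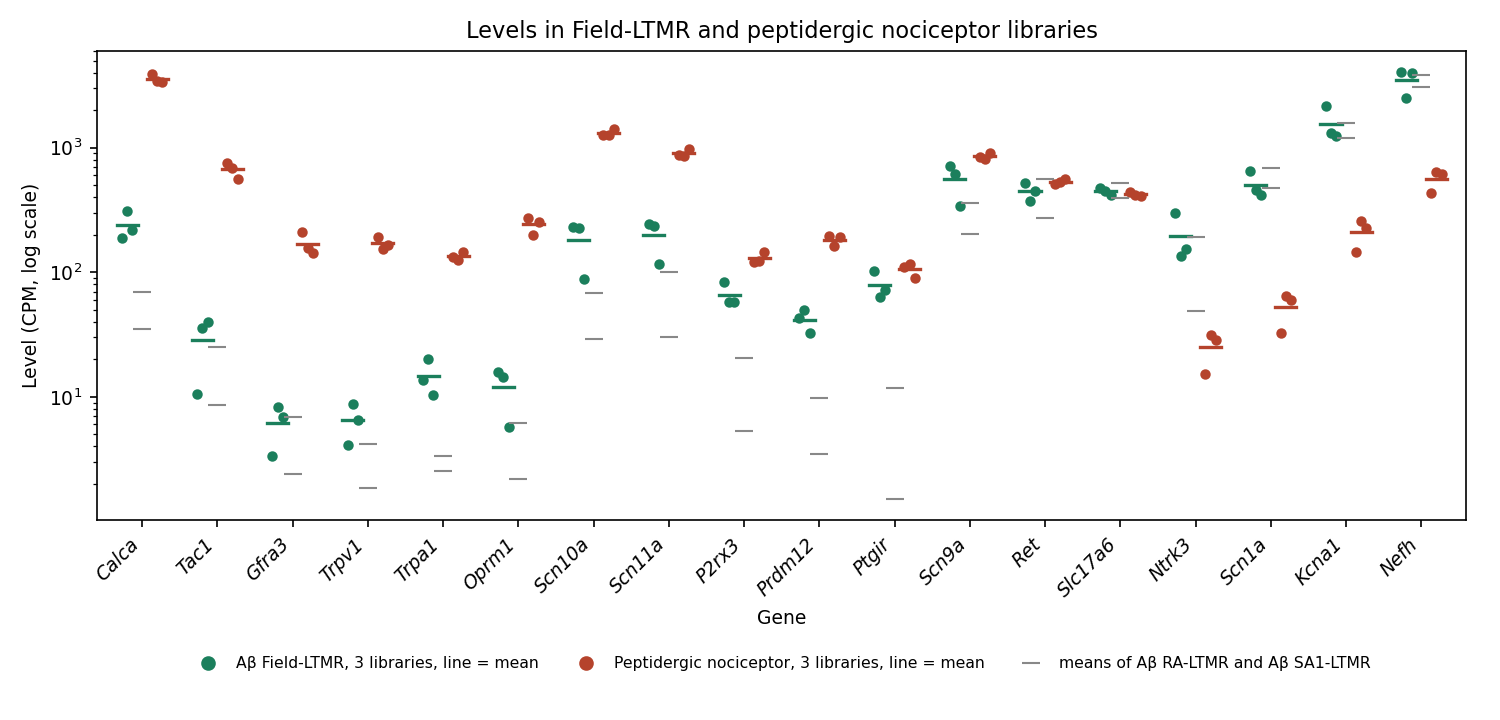
Level of 18 genes in CPM on a log axis; points are single libraries, coloured lines the mean of the 3 Field-LTMR and of the 3 peptidergic libraries, and grey lines the means of Aβ RA- and Aβ SA1-LTMRs. Field libraries lie below peptidergic libraries for Tac1, Trpv1 and Scn10a, above them for Scn1a and Nefh, and overlap them for Ret and Ptgir.

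Of 14 thermal and irritant TRP channels, 8 were lower in Field-LTMRs, none was higher and 4 were shared, with a median of -1.45; the shared share, 28.6%, is near the 29.4% of all genes. Trpv1 (ENSMUSG00000005952, chromosome 11, 73234292 to 73261242, plus strand) stood at 4.11, 8.82 and 6.47 CPM in Field libraries and at 193, 153 and 166 CPM in peptidergic libraries. That is a log2 difference of -4.76 (SE 0.70, adjusted p = 1.75e-05), and the groups were far apart. Trpm8, the receptor for cold and menthol, stood at 3.48, 2.84 and 2.58 CPM against 55.3, 53.2 and 41.9 CPM (log2 difference -4.07, adjusted p = 1.17e-04). Trpa1, the receptor for pungent electrophiles, was lower by less: 13.6, 20.2 and 10.3 CPM against 133, 126 and 147 CPM, or -3.22. Trpm3, a heat-sensitive channel, was lower by -1.80, and Trpc4 and Trpc5, receptor-operated channels, by -3.82 and -2.32; with limma on log2(RPKM + 1), Trpc5 was at -0.83. The call of Trpc6 (-2.34) did not hold without Field library 3 (adjusted p = 0.0724), and Trpc6 was at -3.19 without Field library 2. Trpv2 (-0.06), Trpm2 (-0.03) and Trpc1 (0.07) were shared, each with Field and peptidergic ranges that overlapped. Trpv2 stood at 36.3, 30.3 and 32.8 CPM in Field libraries and at 35.6, 33.1 and 35.3 CPM in peptidergic libraries.

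Voltage-gated sodium channels changed in both directions: of 17 tested genes 7 were lower in Field-LTMRs (41.2%), 6 higher (35.3%) and none shared, with a median of -0.61. Scn10a, the tetrodotoxin-resistant channel Nav1.8 (ENSMUSG00000034533, chromosome 9, 119608456 to 119719322, minus strand), stood at 229, 226 and 88.3 CPM in Field libraries and at 1270, 1267 and 1425 CPM in peptidergic libraries. The difference was -2.87 (SE 0.52, adjusted p = 2.19e-04), with Field library 3 the lowest. Scn11a, the persistent-current channel Nav1.9 (ENSMUSG00000034115, chromosome 9, 119753759 to 119825456, minus strand), stood at 246, 234 and 117 CPM against 870, 854 and 973 CPM, a difference of -2.18 (SE 0.38). Field libraries therefore kept 13.7% of the peptidergic mean of Scn10a and 22.1% of that of Scn11a. Scn9a, the threshold channel Nav1.7, stood at 711, 619 and 340 CPM in Field libraries and at 843, 811 and 900 CPM in peptidergic libraries. It was not called (-0.61, adjusted p = 0.164) although the groups did not overlap, and its interval was too wide for the shared rule. On the deposited RPKM (reads relative to gene length and library size) with a pseudocount of 0.1, limma gave Scn9a -1.20 (adjusted p = 0.0152), on a scale where the median of all genes was -0.25.

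The channels of fast-firing myelinated axons went the other way. Scn1a, Nav1.1, stood at 646, 454 and 419 CPM in Field libraries and at 32.7, 65.1 and 60.2 CPM in peptidergic libraries, a log2 difference of 3.27 (SE 0.44, adjusted p = 4.79e-06). Scn8a, the nodal channel Nav1.6, was higher by 1.79, and Scn7a, a sodium-sensing relative, by 1.21, or by 0.63 (adjusted p = 0.0754) with limma on log2(RPKM + 0.1). Auxiliary subunits split as well: Scn3b was lower, at 27.8, 22.5 and 22.7 CPM against 244, 235 and 242 CPM (-3.30), while Scn4b (2.56) was higher. Fgf13, a cytoplasmic partner of sodium channels, was lower by -1.85. Per length, Field-LTMRs held 97.3 RPKM of Scn7a and 76.3 RPKM of Scn1a, with 22.5 RPKM for Scn10a, 21.4 for Scn11a, 27.6 for Scn9a and 29.6 for Scn8a. In peptidergic nociceptors the means were 185 RPKM for Scn10a, 125 for Scn11a, 58.4 for Scn9a, 60.2 for Scn7a, 11.1 for Scn8a and 8.92 for Scn1a.

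**Figure D3:**
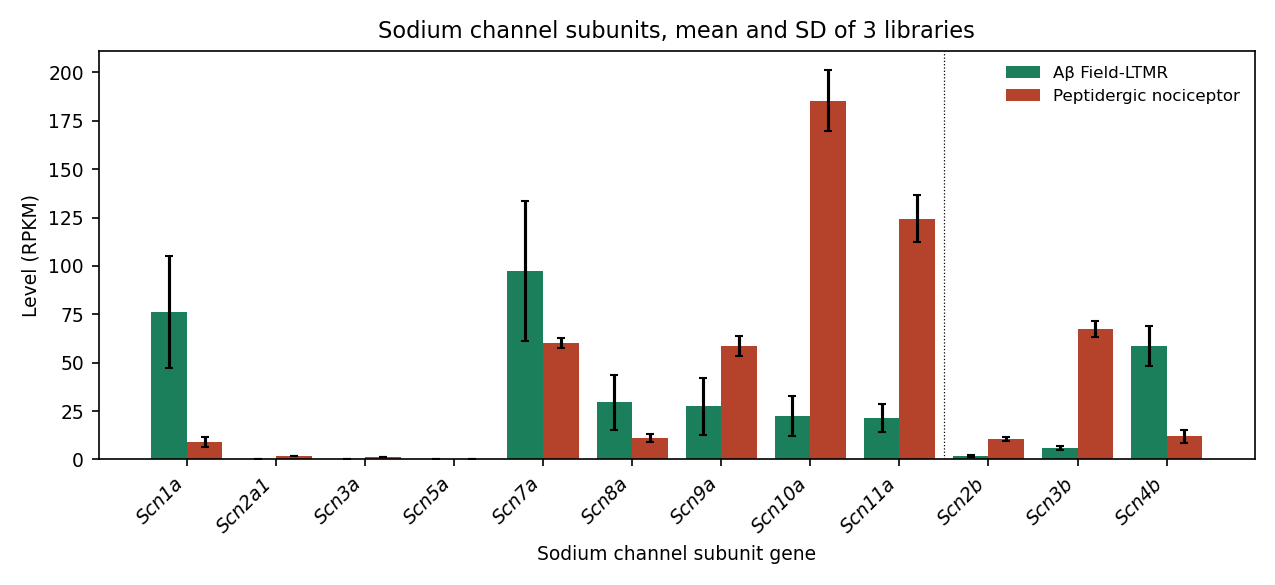
Deposited RPKM of sodium channel alpha subunits (left of the dotted line) and of the beta subunits Scn2b, Scn3b and Scn4b (right), as the mean (bars) and SD (error bars) of 3 libraries per group. Scn10a and Scn11a are the highest alpha subunits in the peptidergic group, at 185 and 125 RPKM, and Scn7a and Scn1a in the Field group, at 97.3 and 76.3 RPKM.

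Of 10 ligand-gated channels for ATP and protons, 1 was lower in Field-LTMRs, 1 higher and 3 shared, with a median of 0.11; these shares are near the 8.58%, 7.73% and 29.4% of all genes. P2rx3, the ATP receptor of small-diameter afferents (ENSMUSG00000027071, chromosome 2), stood at 83.1, 58.1 and 57.4 CPM in Field libraries and at 120, 123 and 144 CPM in peptidergic libraries. The groups did not overlap, but the difference of -0.96 (SE 0.34, adjusted p = 0.0399) did not reach 2-fold. It reached it without Field library 1 (-1.17, adjusted p = 0.0328), with the replicate number as a block (-1.01) and on log2 RPKM (-1.33 with a pseudocount of 0.1). Its partner P2rx2 was lower by -4.21, and by -5.06 without Field library 2; it was low in both groups, at 3.61, 3.27 and 3.42 CPM in peptidergic libraries and at most 0.507 CPM in Field libraries. P2rx6 was higher by 3.63. The acid-sensing channel Asic2 (-0.10) and the ATP receptor P2rx4 (0.06) were shared. Asic3, the acid sensor of muscle and skin afferents, was shared as well (0.15), at 63.7, 51.1 and 44.2 CPM against 45.6, 49.7 and 48.1 CPM, but not without Field library 3.

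Among 16 genes of mechanotransduction, 6 were lower in Field-LTMRs (37.5%), 3 higher (18.8%) and 3 shared (18.8%), with a median of 0.01. Piezo2, the channel that most touch responses depend on, stood at 1064, 598 and 554 CPM in Field libraries and at 338, 377 and 390 CPM in peptidergic libraries. The groups did not overlap, and the difference of 1.00 (SE 0.23, adjusted p = 2.18e-03) lay at the 2-fold threshold. The call rested on Field library 1, without which it was 0.64, and it was also lost without peptidergic library 1 (0.94) and under 7 other settings of normalisation, filter, libraries, test or block, in which it ranged from 0.63 to 0.98. Ano1, the calcium-activated chloride channel, was higher by 3.23, at 8.45, 10.8 and 5.95 CPM against 0.272, 1.03 and 1.36 CPM. The potassium channels Kcnk2 (-3.58) and Kcnk18 (-2.43), which are mechanically or chemically gated leak channels, were lower. Ano3, a relative of Ano1 that modulates nociceptor excitability, was shared (0.19), as was Tmem150c (0.41), a membrane protein linked to mechanical currents.

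Potassium channels also divided: of 54 tested genes, 13 were lower in Field-LTMRs (24.1%), 12 higher (22.2%) and 6 shared (11.1%), with a median of 0.11. Kcns2, a silent subunit of the Kv family, was lacked in Field-LTMRs, at 0.115, 0.101 and 0.0437 CPM against 12.2, 10.3 and 8.39 CPM (log2 difference -6.92, SE 0.91, adjusted p = 2.62e-06). Kcnt2, a sodium-activated channel, was lower by -4.72, at 1.73, 3.85 and 1.05 CPM against 59.7, 53.9 and 47.0 CPM. Kcnc2, a fast delayed rectifier, was lower by -4.20, and Kcna4, an A-type channel, by -1.91, or by -2.53 without Field library 2. The juxtaparanodal channels Kcna1 and Kcna2 were higher in Field-LTMRs by 2.89 and 1.59. Kcna1 stood at 2153, 1303 and 1233 CPM in Field libraries and at 145, 260 and 227 CPM in peptidergic libraries, without overlap. Kcns1 (3.13), Kcnh5 (3.67) and Kcnh2 (2.54) were higher as well.

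Of 21 calcium and HCN channel genes, 7 were lower in Field-LTMRs (33.3%), 5 higher (23.8%) and 3 shared (14.3%), with a median of -0.38. Cacna1e, the R-type channel (ENSMUSG00000004110, chromosome 1), stood at 1.73, 2.03 and 0.656 CPM in Field libraries and at 135, 141 and 120 CPM in peptidergic libraries, a log2 difference of -6.59 (SE 0.76, adjusted p = 5.46e-07). Field libraries held 1.12% of the peptidergic mean. Cacna1c, an L-type channel, was lower by -3.17, Cacna1b, the N-type channel, by -1.27 and Cacna2d1, the gabapentin-binding subunit, by -2.65. Its relative Cacna2d3 was higher by 2.33. The pacemaker channels split, with Hcn2 higher by 1.49 and Hcn3 and Hcn4 lower by -1.77 and -2.09.

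Inhibitory receptors split within families. Of 26 tested, 10 were lower in Field-LTMRs (38.5%), 8 higher (30.8%), 4 shared (15.4%) and 2 lacked (7.69%), with a median of -0.08. Oprm1, the mu opioid receptor (ENSMUSG00000000766, chromosome 10), stood at 15.8, 14.5 and 5.71 CPM in Field libraries and at 273, 199 and 254 CPM in peptidergic libraries (log2 difference -4.35, SE 0.74, adjusted p = 1.05e-04). Oprd1, the delta opioid receptor, did the reverse, at 63.2, 35.1 and 54.8 CPM against 4.87, 6.24 and 8.62 CPM (2.96, SE 0.44, adjusted p = 1.54e-05). Neither gene's groups overlapped. Npy1r, a neuropeptide Y receptor, was lower by -5.16, the galanin receptor Galr1 by -4.87 and the neuropeptide Y receptor Npy2r by -3.90. The somatostatin receptors Sstr2 (-5.54) and Sstr4 (-4.97) were lacked, and Sstr2 was at most 0.394 CPM in Field libraries and at least 10.5 CPM in peptidergic libraries. The serotonin receptor Htr1d, a target of triptans, was higher by 3.98, the metabotropic glutamate receptor Grm8 by 3.00 and the adenosine receptor Adora1 by 1.5. The cannabinoid receptor Cnr1 (-0.20) and both subunits of the GABA-B receptor, Gabbr1 (0.11) and Gabbr2 (0.27), were shared. Cnr1 stood at 101, 93.0 and 67.3 CPM in Field libraries and at 96.2, 112 and 90.8 CPM in peptidergic libraries.

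Receptors for inflammatory and pruritic mediators were mostly not called: 10 of 44 were lower (22.7%), 5 higher (11.4%) and 5 shared (11.4%), with a median of -0.35. Ptgir, the prostacyclin receptor (ENSMUSG00000043017, chromosome 7, 16906490 to 16910905, plus strand), stood at 102, 63.3 and 71.7 CPM in Field libraries and at 111, 117 and 90.6 CPM in peptidergic libraries. The ranges overlapped and the difference was -0.43 (SE 0.53, adjusted p = 0.615); its interval was too wide for the shared rule. Prokr2, a prokineticin receptor, was lower by -3.94, at 7.91, 5.98 and 3.96 CPM against 103, 99.4 and 71.7 CPM, while its relative Prokr1 was higher by 3.20, at 155, 102 and 107 CPM against 15.3 CPM or less. The prostaglandin E2 receptor Ptger1 (-2.25) and the ionotropic serotonin receptor subunits Htr3a (-2.36) and Htr3b (-1.77) were lower. Htr7, a serotonin receptor coupled to cAMP, was higher by 4.57, and F2r, the thrombin receptor, by 2.61. The purinergic receptor P2ry1 (-0.02) and the endothelin receptor Ednrb (-0.06), which satellite glia also express, were shared.

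Mas-related receptors, a family of itch and pain receptors, had a median of -2.40 over 12 tested genes. Of these, 6 were lower (50%), 1 higher (8.33%) and 2 lacked (16.7%). The higher share is near the 7.73% of all genes. The higher gene was Mrgpra2a, at no more than 0.254 CPM in any Field library and without a count in peptidergic libraries, and neither limma alternative called it. Mrgpra3, the chloroquine receptor, stood at 6.71, 7.5 and 1.6 CPM in Field libraries and at 145, 157 and 189 CPM in peptidergic libraries (log2 difference -5.004, SE 0.82, adjusted p = 6.99e-05). Mrgprb5 was lacked, at 0.646, 0.811 and 0.328 CPM against 18.1, 27.0 and 25.04 CPM, and Mrgprx1 was lower (log2 difference -3.38). Mrgprd, which marks nonpeptidergic nociceptors, was not called, at 66.3, 83.1 and 18.2 CPM in Field libraries and 52.6, 66.3 and 80.5 CPM in peptidergic libraries. Members of the Mrgpra and Mrgprb families are near copies of each other, so how their reads were divided is uncertain.

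Transcription factors of sensory neuron identity were lower for 12 of 41 tested (29.3%), higher for 11 (26.8%) and shared for 5 (12.2%), with a median of -0.28. Prdm12, a regulator required for nociceptors to form (ENSMUSG00000079466, chromosome 2), stood at 42.8, 49.5 and 32.8 CPM in Field libraries and at 195, 163 and 191 CPM in peptidergic libraries (log2 difference -2.14, SE 0.44, adjusted p = 7.2e-04). It was lower in each Field library than in any peptidergic library, at 22.8% of the peptidergic mean. Bcl11a, a zinc finger repressor (ENSMUSG00000000861, chromosome 11), was lacked, at 0.138, 0.507 and 0.394 CPM against 22.6, 21.2 and 17.3 CPM (-6.03). Runx1, which directs nociceptor subtypes, was lower by -1.95 and spread widely in Field libraries, at 42.0, 84.6 and 10.3 CPM against 171, 182 and 169 CPM; without Field library 2 it was -2.73. Ldb2 (-2.48), Zfhx2 (-1.61), Klf7 (-1.16), Nfib (-1.46) and Zeb2 (-1.55) were lower as well. Maf, a factor of mechanoreceptor development, stood at 52.7, 81.0 and 49.8 CPM against 9.31, 13.8 and 12.7 CPM, higher by 2.35. Esrrg (3.38), an orphan nuclear receptor, and Onecut1 (2.69) were also higher. Casz1, a zinc finger factor of the nociceptor set described below, was shared (0.29), but not without Field library 3.

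Neurofilaments were higher in Field-LTMRs, and the main glutamate transporter of sensory neurons was shared. Nefh, the heavy neurofilament of large axons (ENSMUSG00000020396, chromosome 11), stood at 4048, 2503 and 4003 CPM in Field libraries and at 435, 633 and 616 CPM in peptidergic libraries (log2 difference 2.65, SE 0.23, adjusted p = 6.95e-09). Nefm (2.53) and Nefl (2.11) were higher too, and the filament protein Ina was lower (-2.25). Prph, the filament peripherin of small-diameter neurons, met the shared rule (-0.24), at 451, 419 and 806 CPM against 737, 574 and 674 CPM, but not without Field library 3 (-0.61) or peptidergic library 2. The vesicular glutamate transporter Slc17a6 was shared, at 476, 451 and 416 CPM against 441, 416 and 411 CPM, while its relative Slc17a7 was higher by 3.31. Of 23 calcium buffers and markers of myelinated afferents, 16 were higher in Field-LTMRs (69.6%) and 1 lower (4.35%), with a median of 1.87. Among them were the calcium binding proteins Vsnl1 (2.58) and Pvalb (2.66), the axonal adhesion molecules Cntn1 (2.35) and Nfasc (1.89), and S100b (2.33), which satellite glia also express. The member that was lower, Hpcal4 (-3.94), was lacked; with limma on log2(RPKM + 1) it was at -0.87, under 2-fold.

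Of 28 glutamate and GABA-A receptor genes, 7 were lower in Field-LTMRs (25%), 8 higher (28.6%) and 8 shared (28.6%), with a median of 0.04. The shared share is near the 29.4% of all genes. GABA-A subunits divided: Gabrb2 (3.61) and Gabrg1 (3.42) were higher, and Gabrb1 (-2.74, or -0.55 with limma on log2(RPKM + 1)) and Gabrg3 (-4.82) were lower. The NMDA receptor subunit Grin2d was lacked, at no more than 0.304 CPM in Field libraries against at least 7.28 CPM in peptidergic libraries. The AMPA subunit Gria2 (0.11) and the kainate subunit Grik1 (-0.02) were shared.

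Kinases and second messengers that act in sensitisation were lower for 12 of 34 (35.3%), higher for 2 (5.88%) and shared for 9 (26.5%), with a median of -0.63. The higher and shared shares are near the 7.73% and 29.4% of all genes. Prkcd, a protein kinase C isoform activated by diacylglycerol, stood at 60.2, 95.6 and 37.5 CPM in Field libraries and at 311, 301 and 315 CPM in peptidergic libraries (-2.27, SE 0.31, adjusted p = 4.84e-06). Plcb3, a phospholipase downstream of itch and pain receptors, was lower by -2.22, and Prkca, a second isoform, by -1.36. The cyclase Adcy5 (-3.51) and the G protein regulators Rgs9 (-3.54), Rgs8 (-2.72), Rgs17 (-2.37) and Rgs4 (-1.95) were lower. The cyclase Adcy1 (1.91) and the catalytic subunit Prkaca (1.31) were the members that were higher. Other subunits of protein kinase A were shared: Prkacb (0.28), and Prkar1a (-0.09), at 672, 1073 and 841 CPM against 896, 956 and 908 CPM.

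Of 16 markers of peptidergic subclasses, 10 were lower in Field-LTMRs, 1 higher and 2 lacked, with a median of -2.26. The 2 lacked were Sstr2, named above, and Avpr1a, the vasopressin receptor, at 0.0231, 0.406 and 0.547 CPM against 19.7, 15.9 and 10.3 CPM. The semaphorin receptor Plxnc1 (-2.55) and the bone morphogenetic protein receptor Bmpr1b (-3.69) were lower, and Cd34 was higher by 2.18.

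A wider set of nociceptor genes was made from comparisons that leave out the 6 libraries. It took the genes higher in nonpeptidergic nociceptors (MrgD-EGFP mice) than in each of Aδ-LTMRs, Aβ RA-LTMRs, Aβ SA1-LTMRs and proprioceptors. These comparisons come from the same fit over 26 libraries, so the 6 libraries still entered its filter, scaling and estimate of the spread. Aδ-LTMRs came from TrkBCreER;R26tdtomato(Ai14) mice given tamoxifen at 2 mg a day on embryonic days 12 to 13, and proprioceptors from PVIRESCre;R26tdtomato(Ai14) mice; proprioceptors and nonpeptidergic nociceptors had no tamoxifen. The set held 1109 genes, with a median log2 difference, Field minus peptidergic, of -0.91 beside 0.02 over all genes. Of these, 394 were lower in Field-LTMRs (35.5%) and 14 were higher (1.26%), beside 8.58% and 7.73% of all genes. Without Field library 3, 291 were lower. A further 222 were shared (20%), beside 29.4% of all genes, and 4 were lacked (0.361%), beside 0.287% of all genes. Among the 4 were Mrgprb5 and the Wnt enhancer Rspo4, which was chosen for naming after its values were seen. The remaining genes of the set were neither called nor shared. Some other genes lacked by Field-LTMRs were also low in nonpeptidergic nociceptors, with means of 0.297 CPM for Bcl11a, 0.185 for Kcns2, 0.211 for Sstr2 and 0.134 for Avpr1a. Mrgprb5 averaged 35.7 CPM there. The low level of Bcl11a, Kcns2, Sstr2 and Avpr1a is therefore not particular to Field-LTMRs.

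**Figure D4:**
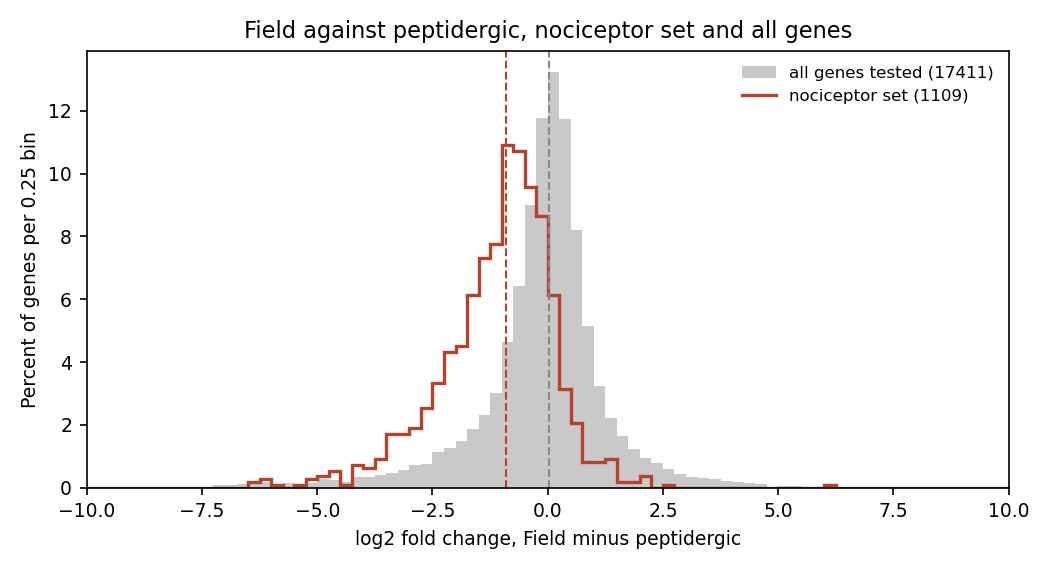
Distribution of the log2 difference, Field minus peptidergic, over the 1109 genes of the nociceptor set and over all 17411 genes tested, each as a share of its genes; 2 genes lie beyond the plotted range. The set is shifted below 0, with a median of -0.91, and the median of all genes is 0.02.

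The 10 shared genes of this set with the highest mean level over the 6 libraries are named here. Scd2, a fatty acid desaturase, stood at 1083, 959 and 701 CPM in Field libraries and at 989, 1179 and 1075 CPM in peptidergic libraries (log2 difference -0.24). Tusc5 (0.21), Skp1a (-0.21), a subunit of ubiquitin ligases, and Arhgdia (-0.30), a regulator of small GTPases, were shared too, with Ret and Prph. Several of the 10 stood at like levels in the other Aβ afferents. Scd2 averaged 1028 CPM in Aβ RA-LTMRs and 1043 CPM in Aβ SA1-LTMRs, Prph 556 and 506 CPM, and Arhgdia 400 and 427 CPM. Tusc5 alone was called higher in Field-LTMRs than in the mean of these groups (1.06), and not without Field library 1 (0.95). The tubulin Tubb5 (-0.39) was shared but not without Field library 3, and Sncg (-0.14), the synuclein of sensory neurons, was not shared without Field library 2 or 3 or peptidergic library 2 or 3, or with the glial level as a covariate (-0.45). Ctsl (-0.60) and N28178 (-0.64) met the rule near its edge, and both had an adjusted p under 0.05. Ctsl was called lower with limma on log2 RPKM (-1.12 with a pseudocount of 0.1) and was not shared without Field library 3 (-0.86) or peptidergic library 2 or 3. N28178 was not shared without Field library 1 (-0.85) or 2 or peptidergic library 1 or 2. Of the genes of the set that were higher in Field-LTMRs, Slc22a18, an organic ion transporter, stood at 14.5, 10.7 and 13.6 CPM against 2.65, 3.69 and 2.97 CPM (2.07, SE 0.42, adjusted p = 6.16e-04). Dusp6, a phosphatase of MAP kinases (1.48), and Msrb3, a methionine sulfoxide reductase (1.25), were higher as well, though neither call held with limma on log2 RPKM. Mrgpra2a, a Mas-related receptor, was called higher at no more than 0.254 CPM in any Field library, with no count in a peptidergic library; neither limma alternative called it. The other 6 of the 10 with the largest difference lost the call without at least 1 of the 6 libraries. They were Rpl28-ps1 (2.15, and 1.27 with an adjusted p of 0.128 without Field library 2, its deposited RPKM listed at 0 in all 6 libraries), Grip2 (1.42), Rpl39-ps (1.39), Unc119 (1.31), the serotonin receptor gene Htr2a (1.10) and Ldlrad4 (1.01).

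The 10 genes with the largest difference in each direction were of several kinds. Lower in Field-LTMRs were Kcns2, Cacna1e, Bcl11a and Avpr1a, described above, Mrgpra4 (-6.59), the choline transporter Slc5a7 (-6.02), the channel Trpc7 (-5.78), the calcium-sensing receptor Casr (-5.75), Car8 (-5.64), a protein that restrains calcium release, and the zinc finger protein Zcchc12 (-5.57). Zcchc12 stood at 0.462, 0.608 and 0.394 CPM in Field libraries and at 23.1, 25.9 and 17.2 CPM in peptidergic libraries. Several of these values moved with 1 library: without Field library 1 they were -7.18 for Slc5a7, -6.57 for Trpc7 and -4.95 for Avpr1a, and without Field library 3 they were -5.87 for Mrgpra4, -5.35 for Slc5a7, -6.55 for Casr and -6.91 for Avpr1a. Mrgpra4 had counts in Field library 1 alone, so without that library its difference has no measured size. In the other direction, Ikzf1, a zinc finger factor of lymphocytes, stood at 36.2, 27.3 and 29.1 CPM in Field libraries and at 0.0319, 0.210 and 0.157 CPM in peptidergic libraries, higher by 7.86 (SE 1.1, adjusted p = 3.92e-06). The cadherin Cdh3 was higher by 7.52, the aldehyde dehydrogenase Aldh1a7 by 6.94, the synaptotagmin Syt13 by 5.42, the matrix link protein Hapln1 by 5.32, the iodotyrosine deiodinase Iyd by 5.23 and Brinp3 by 4.8. The retinol binding protein Rbp2 (5.29) and Fam163a (5.10) were higher too, and were 5.90 without peptidergic library 3 and 6.10 without peptidergic library 2. Ptgfr, the receptor for prostaglandin F2 alpha, stood at 355, 311 and 353 CPM in Field libraries and at 5.38, 14.8 and 9.04 CPM in peptidergic libraries, higher by 5.12 (SE 0.63).

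The nociceptor genes that remained in Field libraries were next set beside their level in the other Aβ afferents, Aβ RA-LTMRs (Npy2r-GFP mice without tamoxifen, 5 libraries) and Aβ SA1-LTMRs (TrkCCreER;Retf(GFP) mice, the Field genotype, given 3 mg a day of tamoxifen before birth, 3 libraries). The RA line has another reporter, and tamoxifen in both groups differs from that of the Field group; neither can be told apart from the neuron type. Against the mean of these 2 groups, 1030 genes were higher in Field-LTMRs (5.92%) and 575 lower (3.3%). Both comparisons use the same Field libraries, so their values are given side by side and no agreement between them is counted. The RA and SA1 libraries also entered the definition of the nociceptor set, and nothing is read from that set here. Ptgir averaged 1.51 CPM in RA-LTMRs and 11.8 CPM in SA1-LTMRs, and was higher in Field-LTMRs by 4.25 (adjusted p = 4.79e-07), beside -0.43 against peptidergic nociceptors. P2rx3 was higher than in the other Aβ afferents by 2.67 (adjusted p = 2.8e-07), beside -0.96. The shared genes Rcan1, an inhibitor of calcineurin, and Vav2, a guanine nucleotide exchange factor, were higher by 2.27 and 2.01; both were chosen for naming after their values were seen, and Rcan1 was not shared with peptidergic nociceptors without Field library 3 (-0.43).

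Several genes that nociceptors are known by had an intermediate level, called lower than in peptidergic nociceptors and higher than in the mean of the other Aβ afferents. They are named because both calls held, and the number of genes with both calls was not counted. The mean does not show their level in RA- and SA1-LTMRs separately. Calca was higher than in the other Aβ afferents by 2.28, Scn10a by 2.02, Scn11a by 1.85, Trpa1 by 2.30 and Prdm12 by 2.84. Mrgpra3 (2.60), Ldb2 (2.10), Prkca (2.08) and Prkcd (2.26) were higher as well. The Field level of these genes ran from 3.22% of the peptidergic mean for Mrgpra3 to 39% for Prkca. Gfra3 (3.64%) and Trpv1 (3.79%) lay inside this range but were not called against the other Aβ afferents, so this share does not set the intermediate genes apart. Kcnt2 was also higher, by 4.65, but it was not high in both kinds of nociceptor. It averaged 2.21 CPM in Field, 53.5 CPM in peptidergic and 1.89 CPM in nonpeptidergic libraries. Some other genes low in Field-LTMRs were not called higher than in the other Aβ afferents. Gfra3 (0.57, adjusted p = 0.33), Trpv1 (1.18, adjusted p = 0.124), Trpm8 (0.49) and Kit (0.02) were not called against them, and Tac1 (0.95, adjusted p = 0.0543) was not either, but was called higher without Field library 1 (1.36, adjusted p = 0.00635) and with the replicate number as a block (1.08, adjusted p = 0.0359). Npy1r was lower than in the other Aβ afferents by -3.42, and averaged 12.9 CPM in RA-LTMRs and 26.2 CPM in SA1-LTMRs. Bcl11a was lower by -2.07, a call that did not hold without Field library 1 (-1.6, adjusted p = 0.104).

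**Figure D5:**
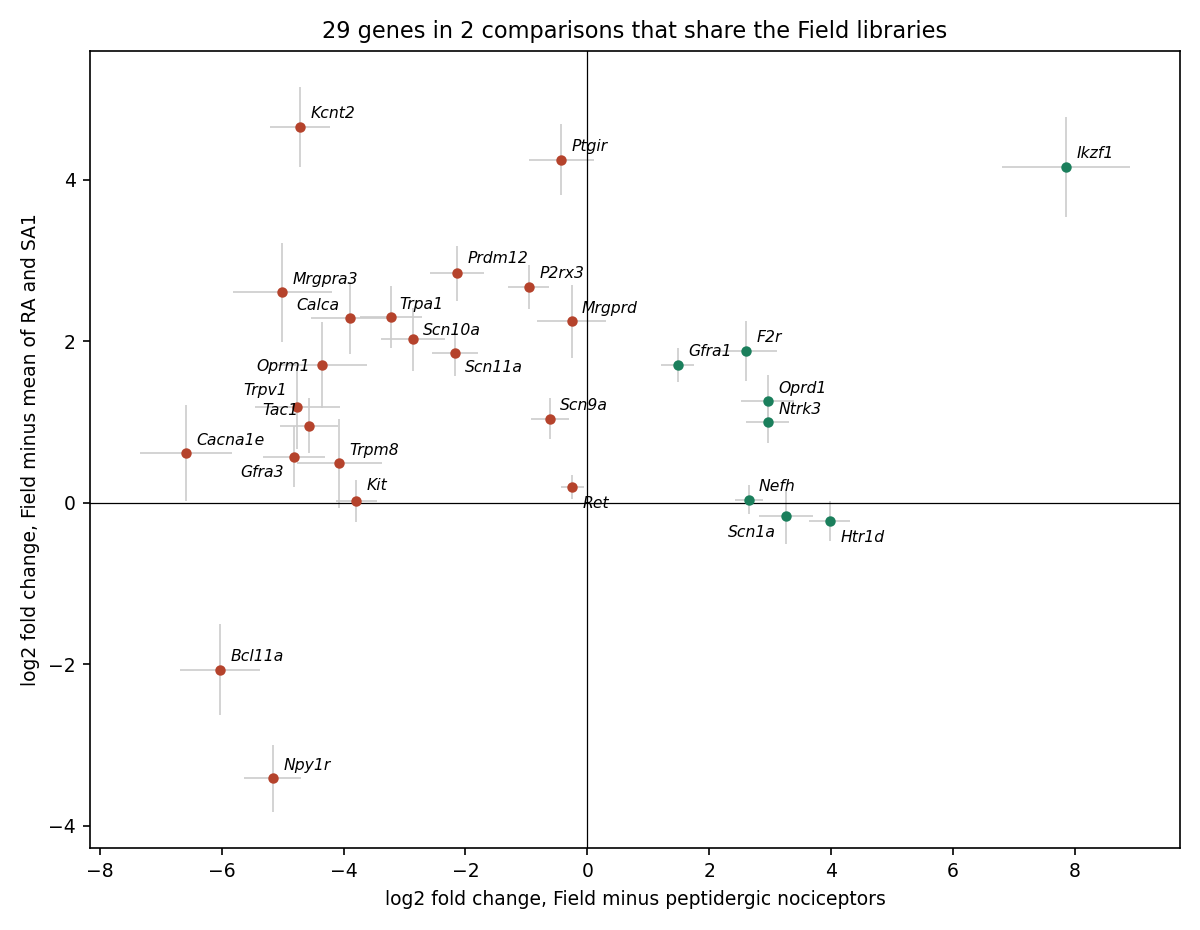
Log2 difference of genes named in the text in Field-LTMRs against peptidergic nociceptors (horizontal axis) and against the mean of Aβ RA- and Aβ SA1-LTMRs (vertical axis), with SE as grey lines; red points lie below 0 and green points above 0 on the horizontal axis, and both axes use the same 3 Field libraries. Calca and Scn10a lie at upper left, and Npy1r and Bcl11a lie below 0 on both axes.

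Markers of other cells were read in the same libraries. The summed level of 9 markers of nonpeptidergic nociceptors was 485, 523.5 and 250.1 CPM in Field libraries 1, 2 and 3 and 1120, 1162 and 1334 CPM in peptidergic libraries, and none of the 9 was at 0 in either group. As a share of the level in nonpeptidergic nociceptor libraries, Field libraries held 5.45% of Mrgprd, 6.1% of Lpar3, 5.86% of Agtr1a, 5.47% of Gfra2, 4.48% of Lpar5, 2.51% of Otoa, 8.34% of Scn11a and 14.8% of P2rx3, all from that list. Peptidergic libraries held 6.48% of Mrgprd, 3.88% of Lpar3, 5.9% of Agtr1a, 5.23% of Gfra2, 4.07% of Lpar5, 4.27% of Otoa, 37.7% of Scn11a and 28.9% of P2rx3. Outside the list, the share in Field libraries was 7.7% for Scn10a, 7.5% for Trpa1 and 24.6% for Prdm12. Field library 3 was the lowest of the Field group in Mrgprd, Scn10a, Scn11a and Runx1. Not all nociceptor genes followed this order: Tac1 and Gal were highest in Field library 3, and Calca, Trpv1 and Gfra3 were lowest in Field library 1. Ptgir averaged 3.49 CPM in nonpeptidergic libraries, under its Field level. What part nonpeptidergic or peptidergic RNA in the Field pools has in the intermediate levels was not tested.

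Satellite glia, which wrap the cell bodies, left RNA in all 6 libraries. The summed level of 16 glial markers was 2351, 3030 and 2591 CPM in Field libraries and 1223, 1939 and 1748 CPM in peptidergic libraries; 2 of the 16 were higher in Field-LTMRs and 8 shared, and none was at 0. One of the higher genes, S100b, which is also counted above among markers of myelinated afferents, averaged 828 CPM in Field and 165 CPM in peptidergic libraries and makes up much of the difference in the sum. The mean log2 CPM of the 16 markers was 6.33 ± 0.25 (SD, n = 3) in Field and 5.94 ± 0.38 (SD, n = 3) in peptidergic libraries. With the glial level as a covariate, 1509 genes were lower in Field-LTMRs and 1263 higher, close to the counts without it. None of 12 Schwann cell markers was called. Markers of macrophages (6), endothelial cells (11), fibroblasts (9) and pericytes (7) were low, with summed levels of at most 137.5 CPM in any library; 2 each of the macrophage, endothelial and fibroblast markers were lower in Field-LTMRs and no pericyte marker was called. The fibroblast gene Dcn, a matrix proteoglycan, had the highest level of these 6 genes, at 3.23, 5.17 and 2.78 CPM against 60.1, 54.7 and 52.0 CPM. Of 14 A-fibre LTMR markers, 11 were higher in Field-LTMRs (78.6%), 2 shared (14.3%) and none lower, with a median of 2.31. The list includes Ntrk3 and Ret, for which the Field cells were selected.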

How the data were processed

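RNA was measured by RNA-seq in pools of sorted dorsal root ganglion neurons, 3 libraries per group compared. Per the labels' protocols, NuGEN reagents were used for amplification and TruSeq for the libraries. Tools listed in the submitters' processing notes, without roles, are FastQC 0.11.3, Cuffdiff, DESeq2 1.14.1, HTSeq 0.6.1 and STAR, with the build mm10. The authors deposited raw read counts for 39017 genes, which were used as they stand, and RPKM, used for levels between genes and for alternatives. The authors also deposited an alignment summary with the percent GC, the fraction of reads mapped and in exons, and a 5'-3' bias ratio whose direction is not given. Total counts per library ran from 10706522 to 57942248; a lower depth leaves low genes less precise. Samples were grouped by their titles.

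Genes were filtered with filterByExpr over the 8 groups, scaled with TMM and fitted over all 26 libraries with the robust quasi-likelihood test of edgeR 4.0.16 (R 4.3.3), since 3 libraries a group alone leave few degrees of freedom. P-values were adjusted by Benjamini and Hochberg over 17411 genes. The SE was derived from the log2 difference and the F statistic of the same fit. The 95% intervals are symmetric intervals built from that SE, so both are approximate. The procedure was tested on simulated counts with the same spread for all genes and with changes only in genes above 5 CPM in the peptidergic group. That simulation does not check differences in library quality or in spread between genes. The comparison, its gene lists and rules were chosen with earlier results of these data known. Genes are named if they belong to the labelling genes or to a list, if they had one of the 10 largest differences in a direction (5 CPM or more in the higher group, no overlap, more than 3 counts in the lower), or if they were among the 10 most abundant shared genes, or up to 10 higher genes, of the nociceptor set; Rcan1, Vav2 and Rspo4 were added later, and some genes that meet these rules are not reported here. Identifiers without a gene name are not named, and list genes whose calls changed with the settings were, after their values were seen, mostly not named and enter the counts only. Alternatives were DESeq2 1.42.0, RLE factors, no filter, limma 3.58.1 on log2 RPKM with a pseudocount of 1 or 0.1, the 6 libraries alone, a glial covariate, a replicate block, each library left out, and stricter rules. Promoters came from RefSeq (GRCm38.p6), gene positions from GENCODE M21 (GRCm38).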

Additional observations from a re-analysis of the deposited data

How the results depend on the processing

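The counts of genes lower, higher, shared and lacked stayed within 1.5 times their main value under all alternatives run, with these exceptions. With limma on log2(RPKM + 0.1), 2449 genes were lower and 865 higher in Field-LTMRs, and on log2(RPKM + 1) 543 were higher; the median of all genes was -0.249 and -0.101 on these scales, beside 0.02, so calls there are relative to that shift. Leaving out 1 library at a time gave 989 to 1446 lower genes, the 989 without Field library 3, and 1081 to 1377 higher genes. With an interval inside 1.5-fold, 29 genes of the nociceptor set and 1530 of all genes were shared; this rule is narrower by construction. With a limit of 0.5 CPM in each Field library, 14 genes were lacked. The replicate numbers do not pair the samples: deviations from the group means of same-numbered libraries correlated at -0.0586, 0.0383 and -0.0836, and Field libraries 1 and 3 correlated best with another number. With the replicate number as a block, 1596 genes were lower and 1337 higher. Of 496 genes that belong to a list or met a naming rule, 244 were called against peptidergic nociceptors; 73 of these lost the call under 1 or more alternatives, 23 of them only with limma on log2 RPKM, and 50 lost it without 1 of the 6 libraries. The counts given for the lists include them. The genes named in the text are more stable than that (15 of 143 lost the call) because list genes with unstable calls were mostly left unnamed. The depth of Field library 2 limits what can be said of genes near 0.3 CPM, where 3 counts of that library lie.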
